A study of Drosophila melanogaster with 2 samples.

Results

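The Bithorax complex is the stretch of chromosome arm 3R that holds the Hox genes Ubx, abd-A and Abd-B. The locus described here is 3R from 12482502 to 12797965 in the dm3 build, the interval targeted by the Oligopaint probes for 89D-89E, and it was chosen by these coordinates alone. It spans 316 bins of 1 kb on each homolog, or 632 bins on both homologs, of 238064 bins on the 5 large arms. For trans-homolog contacts it was divided into 80 bins of 4 kb. Its 300 kb flanks and windows of 3R of the same size served as background.

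Hi-C, which counts ligated pairs of DNA ends that lay near each other in fixed nuclei, was done on whole F1 hybrid embryos aged 2 to 4 h. The mothers came from the inbred line DGRP-057 and the fathers from DGRP-439, so sequence differences assign each end to the maternal or the paternal homolog. There were 2 biological replicates of 1 condition, so nothing was tested between conditions and no p-values are given. Whole embryos mix nuclei of many cell types, and the values are averages over them.

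Ubx, abd-A and Abd-B set the identity of thoracic and abdominal segments, and lie along the chromosome in the order of the segments they specify. Each is controlled by long regulatory regions that insulator elements keep apart. In flies homologous chromosomes pair in somatic cells, and the complex is a classic place to see transvection, in which a regulatory element on one homolog acts on the gene of the other.

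In RefSeq order the 16 genes from Ubx to Abd-B comprise 6 protein-coding genes, 2 miRNA genes and 8 long non-coding or antisense RNA genes. Ubx has modSP, a serine protease of the Toll pathway, as its neighbour on the low-coordinate side. It is followed by lncRNA:bxd, Glut3 and abd-A. Between abd-A and Abd-B lie lncRNA:iab8, lncRNA:iab4 and the miRNA genes mir-iab-4 and mir-iab-8, whose products repress Ubx. Beyond Abd-B come lncRNA:CR46267 and VhaM9.7-d, a subunit of the vacuolar proton pump. This order comes from another build, so no gene of the locus is placed at a position below: low coordinates are the Ubx side of the locus and high coordinates the Abd-B side.

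Replicate 1 held 24390496 pairs and replicate 2 held 24659056. With both ends in the locus and at least 3 kb apart, replicate 1 gave 5162 maternal cis pairs, 4806 paternal cis pairs and 834 trans-homolog pairs. Replicate 2 gave 6515, 5865 and 944. The maternal homolog carried 51.1% of the ends in the locus in replicate 1 and 52.1% in replicate 2, against 50.7% and 51.1% over 3R. Of 316 bins of 1 kb, 291 maternal and 288 paternal bins passed the coverage filter and are called visible. In the 4 kb maps, 78 of 80 bins were visible on each homolog. The pixels remained sparse. A pair of 4 kb bins 12 to 300 kb apart held 2.93 maternal, 2.64 paternal and 0.509 trans-homolog pairs on average, and 68.9% of these pixels held no trans-homolog pair. Correction for coverage multiplied 5 maternal and 4 paternal bins of 4 kb by more than 3 times the median factor, up to 9.06 and 14.2 times. Values were therefore also computed after dropping bins with less than 25% of the median coverage of their arm (the coverage floor), an alternative chosen after seeing the data.

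The locus stood out in cis as a block set apart from its flanks. Contacts are given as observed over expected, where the expected value is the 3R mean at the same separation, so that 1 is the arm average. Within the locus, at 10 to 300 kb, replicate 1 averaged 1.25 and replicate 2 averaged 1.20 (1.23 ± 0.036, SD, n = 2), and 1.17 in the pooled map. With the 300 kb on the low-coordinate side it was 0.623 in replicate 1 and 0.585 in replicate 2. With the 300 kb on the high-coordinate side it was 0.505 and 0.632. Both flanks were thus below the arm average in both replicates, while the inside was above it.

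The ratio of contacts within the locus to those with its flanks was 2.22 in replicate 1 and 1.98 in replicate 2 (2.10 ± 0.17, SD, n = 2). In the pooled map it was 1.96, against a median of 0.994 over the other windows of 3R tiled from the locus, the highest of which reached 1.66. The locus ranked 1 of 81 such windows in the pooled map and in each replicate. The tiled windows were placed without regard to domains, whereas the ends of the locus fell near boundaries. Among 1254 windows taken every 20 kb along 3R, some of which line up with domains elsewhere, 19 exceeded the locus and the highest reached 3.76. Its rank was then 20 in the pooled map, 7 in replicate 1 and 19 in replicate 2. These windows overlap each other, so the ranks are descriptions. This ratio and the windows taken every 20 kb were chosen after seeing the data.

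**Figure D1:**
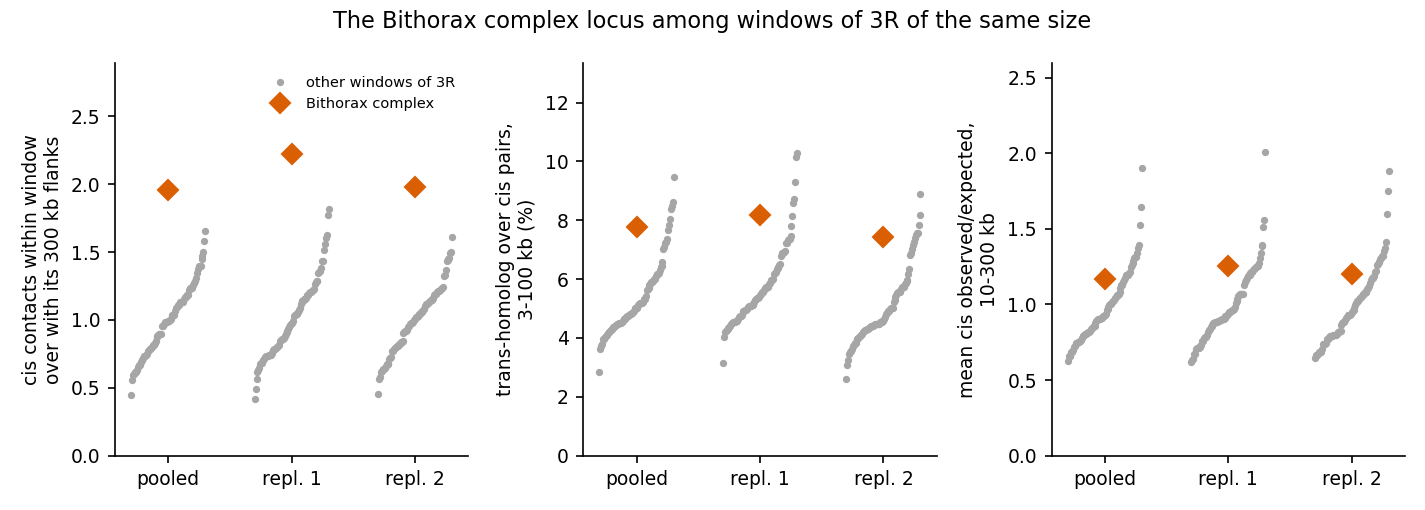
Values of the Bithorax complex locus (diamonds) and of the other tiled windows of 3R of the same size (points, sorted) in the pooled map and in each replicate. Left, cis contacts within a window over those with its flanks (1.96, 2.22 and 1.98 for the locus); middle, trans-homolog over cis pairs in percent (7.76, 8.18 and 7.42); right, mean cis observed over expected (1.17, 1.25 and 1.20).

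The raised contacts inside the locus lay at long separations. In the pooled map the mean was 1.02 at 10 to 30 kb, 1.10 at 30 to 100 kb and 1.26 at 100 to 300 kb. The medians of the other windows were 1.00, 0.982 and 0.856. At 100 to 300 kb the locus gave 1.37 in replicate 1 and 1.30 in replicate 2, and ranked 18 of 82 windows in the pooled map. At 10 to 30 kb it ranked 35 of 82. Over all separations it ranked 20 of 82, so the level inside the locus was not unusual for the arm. Contacts with the flanks ranked 80 of 81 windows from the top. Without correction for coverage they ranked 63 of 81, at 0.623 against a median of 1.01 over the other windows.

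The drop at the edges was followed outward in steps of 50 kb. On the high-coordinate side the maternal homolog gave 0.717, 0.609, 0.527 and 0.365 over the first 200 kb in the pooled map. The paternal homolog gave 0.765, 0.612, 0.428 and 0.364. Both homologs declined at every one of these steps in the pooled map, but in replicate 1 the maternal values were 0.703, 0.488, 0.615 and 0.302. On the low-coordinate side the nearest 50 kb gave 0.585 maternal and 0.617 paternal. There the level was uneven further out: the maternal value was 1.00 at 150 to 200 kb and 0.699 at 200 to 250 kb. At 350 to 400 kb it was 1.00 maternal and 1.07 paternal, and at 450 to 500 kb 0.853 and 0.611. On the high-coordinate side the values at these last 2 steps were 0.526 and 0.561, then 0.643 and 0.560.

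**Figure D2:**
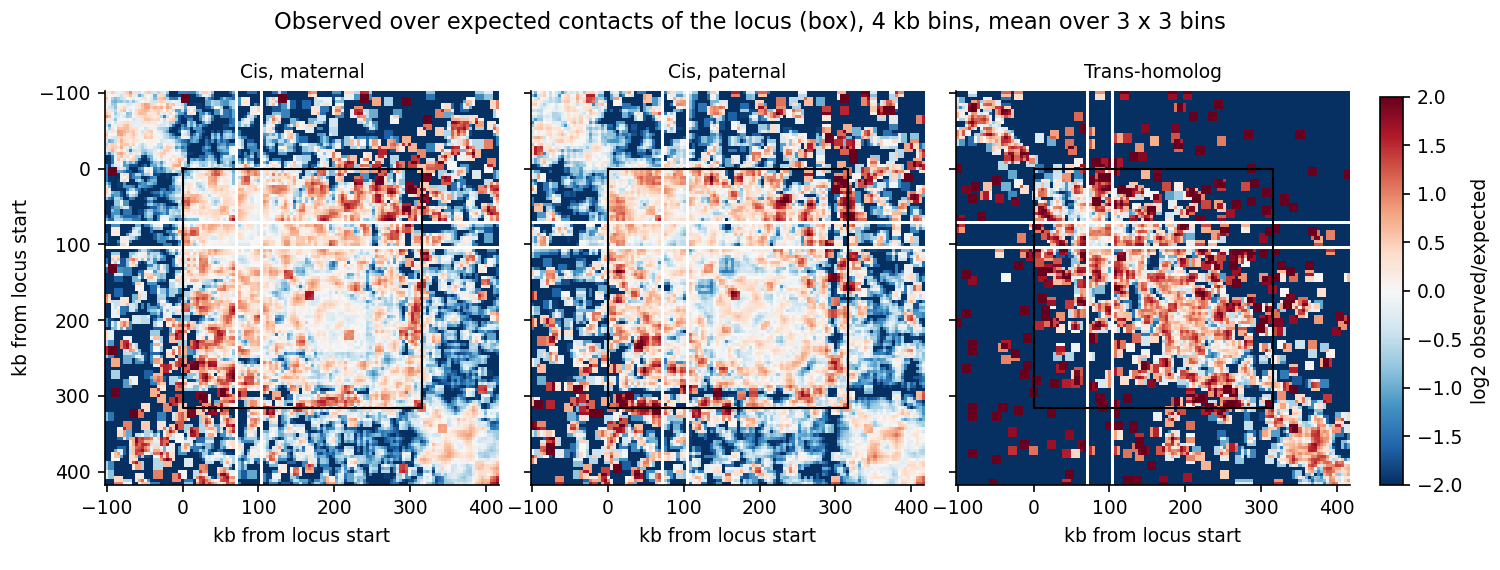
Observed over expected contacts in 4 kb bins on a log2 scale, averaged over 3 by 3 bins, with distance from the start of the locus in kb on both axes and the locus boxed. White lines are masked bins and pixels without pairs are drawn at the lower limit; the maternal and paternal cis maps show the box above its surroundings, and the trans-homolog map is sparser, with 68.9% of pixels empty.

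Boundaries were called as minima of the insulation score, the log2 mean of contacts that cross a bin within 20 kb on either side, with a prominence of at least 0.3. The locus held 12 maternal boundaries, 4.63% of its callable bins, against 5.0% over 3R. It held 15 paternal boundaries, 5.93% of its bins, against 4.98%. Of these, 7 lay within 4 kb of each other on both homologs, 2.8% of the bins callable on both, against 2.39% over 3R. Among 82 windows the locus ranked 27 for maternal boundaries (median of the others 11), 3 for paternal ones (median 10) and 6 for shared ones (median 5). These ranks are of raw counts, and the windows differed in how many bins were visible. In the locus 92.1% of maternal and 91.1% of paternal 1 kb bins were visible, against 79.5% and 79.2% over 3R. In single replicates the paternal count was 13 and 10, at ranks 25 and 56. Replicate 1 alone gave 8 shared boundaries and replicate 2 gave 5, at ranks 6 and 36. The high rank of the paternal count in the pooled map was thus not kept in either replicate. With the coverage floor the locus held 7 maternal, 6 paternal and 3 shared boundaries, at ranks 3, 4 and 5. The ranks were 19, 20 and 6 in replicate 1, and 4, 6 and 2 in replicate 2. With the floor 78.5% of maternal and 78.2% of paternal bins of the locus were visible, against 65.0% and 64.8% over 3R. The share of callable bins over 3R is not given here for this setting, so these ranks describe raw counts only.

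The boundary that recurred in the most maps lay at 12624001 to 12625000, about 142 kb from the start of the locus. Its insulation score was -0.71 maternal and -1.40 paternal in replicate 1, and -0.69 and -0.89 in replicate 2, with prominences of 1.42 and 2.21 in the pooled map. It was called in all 4 maps of single replicates and homologs. It was also called with the coverage floor, with mapping quality of at least 30, with windows of 10 and 40 bins, and in the 4 kb maternal, paternal and trans-homolog maps. Among 907 paternal boundaries of 3R its prominence ranked 56, and among 919 maternal ones 181.

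The boundary at 12746001 to 12747000 was also called in all 4 single maps. The score at its maternal position was -1.31 in replicate 1 and -0.98 in replicate 2, and at its paternal position -0.66 and -0.80. It was lost with the coverage floor and with mapping quality of at least 30, and was called in both 4 kb cis maps but not in the 4 kb trans-homolog map. The boundary at 12574001 to 12575000 was called in the same 4 maps, with pooled prominences of 0.91 maternal and 0.77 paternal, and among the settings named above was lost only with the window of 40 bins. The other 4 shared boundaries, which start at 12507001, 12542001, 12654001 and 12723001, were each missing from at least 1 of the 4 single maps. None of those 4 was called with the coverage floor or with mapping quality of at least 30.

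In the 4 kb cis maps the most prominent boundary of the locus was its low-coordinate edge, at 12480001 to 12484000. The prominence there was 1.85 in both cis maps, which ranked 39 of 326 maternal and 29 of 340 paternal calls on 3R. At the other edge the maternal call was at 12796001 with a prominence of 1.23 and the paternal one at 12800001 with 1.57. Between the edges the highest maternal prominence was 0.62, and the highest paternal one was 1.30, at 12624001. In the 1 kb maps no shared boundary fell at either edge. The nearest below the locus, from 12472001, lay about 10 kb outside, with prominences of 2.76 maternal and 0.60 paternal. It was lost with the coverage floor and with mapping quality of at least 30. At the high-coordinate edge only the maternal homolog had a call, from 12798001, with 0.52. The most prominent maternal 1 kb boundary in the locus, from 12784001 with 2.20, had no paternal partner.

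**Figure D3:**
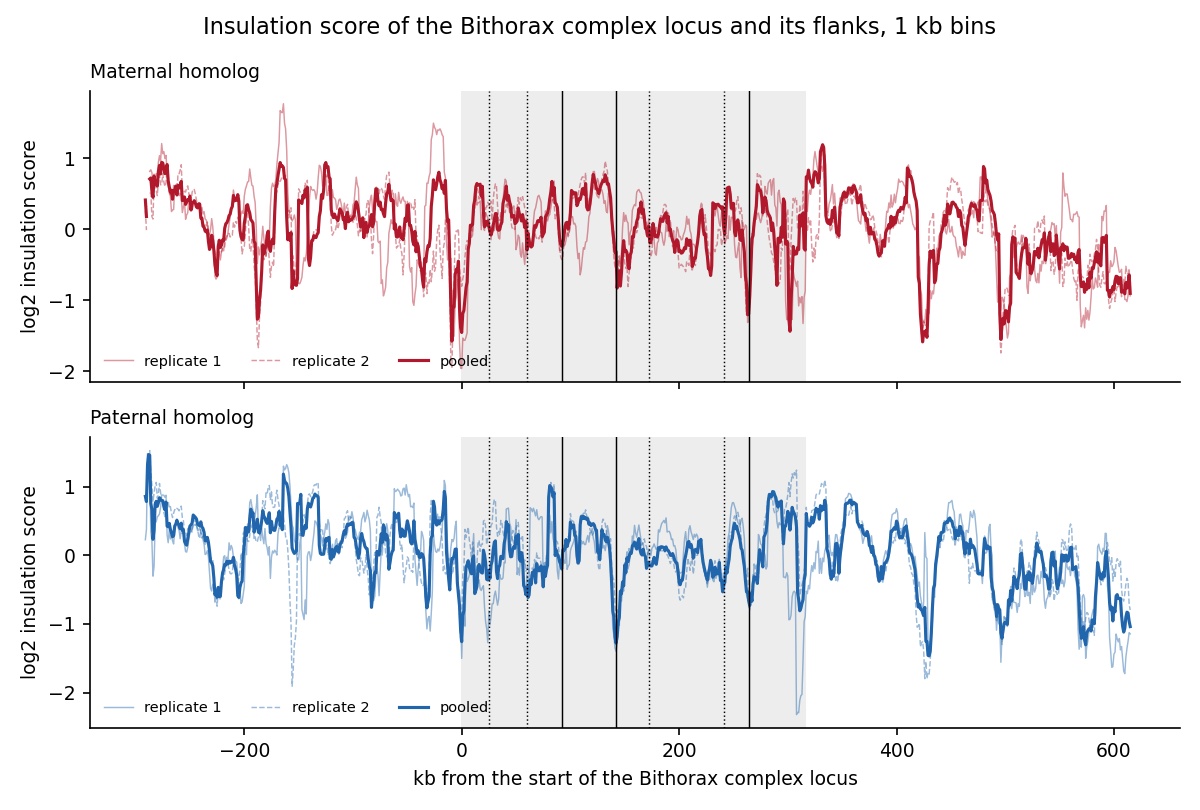
Log2 insulation score in 1 kb bins against distance from the start of the locus in kb, for the maternal (top) and paternal (bottom) homolog, with the locus shaded, thick lines for the pooled map and thin lines for each replicate. Solid vertical lines are the 3 shared boundaries called in all 4 single maps and dotted lines the other 4.

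The shared boundaries and the ends of the locus set off 8 domains, which did not consistently hold more contacts than were found between them. Within domains, maternal contacts averaged 1.18 (replicate 1) and 1.05 (replicate 2), and between domains 1.44 and 1.17. The paternal means were 1.20 and 1.30 within, and 1.08 and 1.25 between. Maternal and paternal values thus differed in direction. The ratio averaged over homologs was 0.965 and 0.973 (0.969 ± 0.0056, SD, n = 2), and 1.02 in the pooled map. Domains called in replicate 1 gave 0.991 in replicate 2, against a median of 1.12 over the other windows. Domains called in replicate 2 gave 0.844 in replicate 1, against 1.19. With the coverage floor the ratio was 0.927 and 0.929, below 1 on both homologs. Summed observed over summed expected contacts gave 1.13, so the side of 1 depended on how pixels were averaged.

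Cut only at 12624001 and 12746001, the locus fell into stretches of 142, 122 and 52 kb. The boundary at 12746001 was itself lost with the coverage floor and with mapping quality of at least 30. That at 12574001, kept with both, was not used as a cut, so the stretches are 1 way to divide the locus. With the coverage floor, the low-coordinate stretch had a mean of 1.25 maternal and 1.19 paternal within itself. The middle stretch had 0.999 and 0.986, and the high-coordinate stretch 1.37 and 1.27. Contacts between the low-coordinate and the high-coordinate stretch were 1.43 maternal and 1.60 paternal. In single replicates the latter contacts were 1.61 and 1.42 in replicate 1, and 1.39 and 1.82 in replicate 2. Without the floor they were 1.08 and 1.30 in the pooled map, against 1.38 and 1.21 within the low-coordinate stretch and 1.08 and 1.32 within the high-coordinate one. The order of these stretches thus depended on the floor.

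The maternal and paternal maps were compared pixel by pixel. Over 2844 pixels of 4 kb, Spearman's rho was 0.182 in replicate 1, 0.194 in replicate 2 and 0.165 pooled. Between replicates it was 0.198 for the maternal and 0.184 for the paternal map. At such sparse counts these weak correlations are values only. The pixels share bins and libraries. In the corrected pooled map the median of the other windows was 0.288, above the 0.165 of the locus. Without correction for coverage, rho between the homologs was 0.369 in the pooled map, and the median of the other windows was 0.420.

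Trans-homolog contacts were more frequent in the locus than in most of the arm. At 3 to 100 kb, replicate 1 held 730 trans-homolog for 8927 cis pairs, or 8.18% (95% Clopper-Pearson interval 7.57 to 8.82%). Replicate 2 held 828 for 11162, or 7.42% (6.90 to 7.96%). The mean was 7.80 ± 0.54% (SD, n = 2). The pooled value of 7.76% ranked 7 of 82 windows, whose other members had a median of 5.03%. Intervals cover counting error only.

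The ratio depended on separation. In the pooled data it was 5.21% at 3 to 10 kb, 7.71% at 10 to 30 kb, 10.5% at 30 to 100 kb and 9.74% at 100 to 300 kb. The medians of the other windows were 3.84, 5.15, 6.39 and 7.59%. The locus ranked 17, 7, 6 and 17 of 82. Replicates 1 and 2 gave 10.6 and 10.4% at 30 to 100 kb, and their intervals overlapped.

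A cis pair with one end assigned to the wrong homolog appears as a trans-homolog pair. Inward pairs 300 to 600 bp apart, which mostly come from unligated fragments, gave 121 trans-homolog for 48756 cis pairs in replicate 1 (0.248%) and 103 for 50343 in replicate 2 (0.205%). At that rate 45.4 of the 1558 pooled trans-homolog pairs, or 2.91%, would be misassigned cis pairs. The rate ranked 28 of 82 windows.

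The pairing score, the log2 mean of the corrected trans-homolog map over 3 bins of 4 kb on either side, had a median of -9.39 over the locus in replicate 1 and -9.57 in replicate 2. The medians of 3R were -9.85 and -10.08. The locus thus lay 0.45 and 0.51 above the arm (0.48 ± 0.040, SD, n = 2), and its pooled median was above 72.6% of the scored bins of 3R. Among windows of the same size its median ranked 18 of 82 in the pooled map, 23 in replicate 1 and 20 in replicate 2. Of 78 scored bins, 58 were above the pooled arm median. The flanks did not lie lower as a whole: the pooled medians were -9.14 on the low-coordinate side and -9.66 on the other, against -9.43 in the locus.

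Pairing was uneven along the locus. The highest bin of the pooled map, 12692001 to 12696000, scored -8.75 there, -8.70 in replicate 1 and -8.83 in replicate 2, and the next highest, from 12696001 and 12688001, adjoined it. Replicate 2 was highest in the adjoining bin from 12696001, at -8.61. Replicate 1 was highest elsewhere, in the bin from 12596001, at -8.31, which scored -10.17 in replicate 2. The other high bins started at 12572001 and 12576001, next to the cis boundary at 12574001. The lowest bin of the pooled map, 12484001 to 12488000, scored -11.36 there and -10.34 in replicate 1, and had no score in replicate 2. The lowest bin of replicate 1 was that from 12496001, at -12.50, which scored -10.29 in replicate 2. A low run at 12768001 to 12776000 scored -11.10 and -11.03 in replicate 1, and -10.66 and -10.70 in replicate 2. By domain, the pooled medians were -10.58 and -10.00 in the 2 domains on the low-coordinate side, between -9.15 and -9.04 in the next 4, and -9.56 and -9.91 in the last 2. Scores were thus lower at both ends than in the middle, in both replicates. The last domain, on the high-coordinate side, was near the arm level, at -9.91 pooled against -9.95 over 3R. It was below the arm in replicate 1 (-10.09 against -9.85) and above it in replicate 2 (-9.91 against -10.08).

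**Figure D4:**
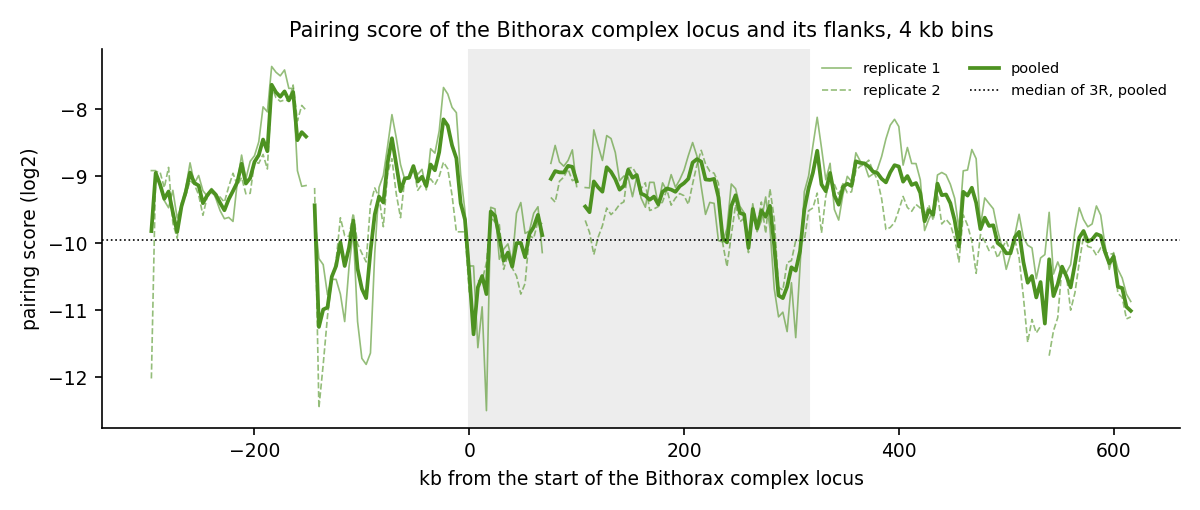
Pairing score (log2) in 4 kb bins against distance from the start of the locus in kb, pooled (thick) and in each replicate (thin), with the locus shaded and the 3R median dotted. Scores are higher in the middle of the locus, up to -8.75 pooled, than at its ends. The lowest, -11.36, lies at the low-coordinate end.

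The trans-homolog map held 5 boundaries in the locus, 6.76% of its callable 4 kb bins, against 9.71% over 3R. They started at 12480001, 12572001, 12620001, 12720001 and 12792001. The first had a prominence of 3.37 and ranked 23 of 564 on the arm. All but that at 12720001 lay within 2 bins of a 4 kb boundary of both cis maps. The share of the 564 trans-homolog boundaries of 3R that lay this close is not given here. The closeness is thus a description of positions, not a trait of the locus. Replicate 1 alone gave 10 boundaries and replicate 2 gave 6, and their positions were not matched between replicates. Trans-homolog contacts within the cis domains over those between them were 0.866 in replicate 1 and 0.984 in replicate 2 (0.925 ± 0.083, SD, n = 2). Over the whole locus, trans-homolog observed over expected was 1.76 and 1.65, and the pooled 1.71 ranked 6 of 82 windows.

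Far from the locus, most 50 kb bins of 3R had contacts with it below the arm average. Of 513 bins of 50 kb at least 500 kb away, the median was 0.629 maternal and 0.652 paternal. The values ran from 0 to 8.59 maternal and from 0 to 16.6 paternal. Expected values are means, and the median of sparse, skewed values can lie below the mean. Such medians are not given here for other windows of 3R, so the level is not shown to be particular to the locus. Only 1 bin, or 0.195%, had at least 2-fold contacts on both homologs with at least 5 pairs on each: 2650001 to 2700000. This share is that of the locus itself. It is not given here for other windows of 3R, so the number called is a description. The called bin held 22 maternal and 13 paternal pairs, at 4.13 and 2.46. In replicate 1 it gave 3.06 and 0.817, and in replicate 2 4.85 and 4.06, so the paternal value of replicate 1, from 3 pairs, was below 1.

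That bin lies in the window from 2400001 to 2900000, which was set from general knowledge, not from an annotation used here, to hold the Antennapedia complex, the other Hox gene cluster of the fly. The locus had 79 maternal and 68 paternal cis pairs with this window. Observed over expected was 1.86 maternal and 1.89 paternal in replicate 1, and 2.57 and 2.58 in replicate 2. The mean of the homologs was 2.22 ± 0.49 (SD, n = 2). It ranked 3 of 52 windows of this size, and the 2 above it held 2 cis pairs each. Trans-homolog contacts with it were 2.34 in replicate 1 and 1.59 in replicate 2, from 37 pairs each. All 6 values were above 1. The windows starting at 16900001 and 26400001 also had all 6 above 1, with lower pooled cis means of 1.37 and 1.22.

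Few of the Antennapedia pairs were of high mapping quality. Of the 147 cis pairs, 11 passed a mapping quality cutoff of 30 on each side, or 7.48%. Over the other windows with at least 20 pairs this share was 20.4%, with a range of 3.28 to 32.8%, and 2 of those 48 windows were lower. Windows next to it on 3R were low as well: those starting at 1900001, 2900001, 3400001 and 3900001 had 8.33, 5.56, 10.3 and 3.28%. With such pairs alone, observed over expected was 0.313, which turns the direction. The part of mapping quality in this contact was not tested further.

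**Figure D5:**
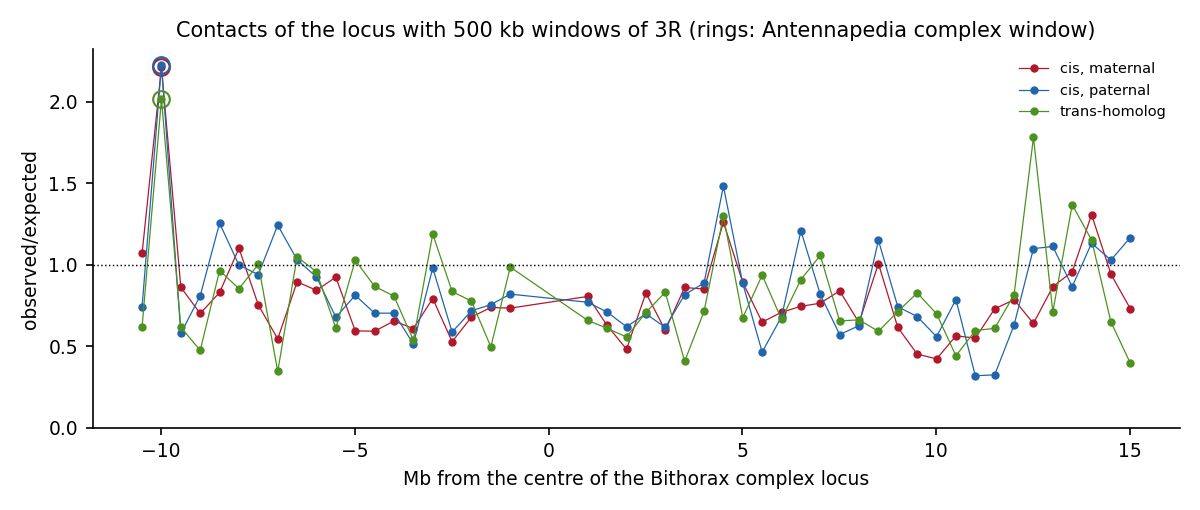
Observed over expected contacts of the locus with windows of 500 kb along 3R against the distance from the centre of the locus in Mb, for maternal cis, paternal cis and trans-homolog pairs; windows with fewer than 20 cis pairs are not drawn. The Antennapedia complex window (rings) stands at 2.21, 2.23 and 2.02, and the next highest cis mean among the windows drawn is 1.37.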

How the data were processed

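The authors trimmed reads with seqtk, aligned them with bwa mem 0.7.15 to a dm3-based diploid F1 genome, retained unique alignments, removed duplicates with pairtools, and deposited each replicate apart. The deposited pairs give positions and strands, and the deposited mapping quality is a score. Pairs at least 3 kb apart were binned at 1 and 4 kb. Bins under a MADmax of 7 were masked and the 5 large arms corrected iteratively, to a relative variance of 1e-05. Calculations used Python 3.11.15, numpy 2.4.6 and scipy 1.17.1. Some of them were tested on simulated maps without coverage bias or iterative correction. The simulated trans-homolog pixels held more pairs than those of the data, so the test does not cover maps this sparse. Boundaries next to masked bins were dropped. Windows needed 50% visible bins. Means ± SD are over 2 replicates. The text names the boundaries called on both homologs, the domains between them, the highest and lowest pairing bins and the called long-range bins. Members and lists were chosen with earlier results of these data known. No dm3 genome or annotation was used here, so no sequence is shown. Alternatives changed replicates, mapping quality, correction, separation, windows, bins, prominence, expected values and the coverage floor.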

Additional observations from a re-analysis of the deposited data

How the results depend on the processing

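Sparse pixels limited most values. The Antennapedia contacts fell from 2.22 to 0.313 with mapping quality of at least 30, where 11 pairs were left. Contacts within over between cis domains lay on both sides of 1: 1.02 as planned, 0.766 with mapping quality of at least 30, 1.05 without iterative correction, 0.989 at separations of at least 20 kb, 0.929 with the coverage floor, 1.13 as summed ratios, and 0.965 to 0.973 without 1 replicate. In trans this ratio was 1.36 with mapping quality of at least 30 and 1.11 without correction, against 0.925. The causes were not tested.

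Without 1 replicate, cis contacts within the locus were 1.20 to 1.25, the correlation of homologs 0.182 to 0.194, the pairing difference 0.453 to 0.509, trans-homolog boundaries 6 to 10, and the ratio to the flanks 1.98 to 2.22. With mapping quality of at least 30 they were 1.26, 0.282, 0.759, 10 and 2.42, and misassignment fell to 0.0700%. Without correction cis contacts were 1.33, the correlation 0.369 and the pairing difference 1.11. With summed ratios cis contacts were 1.07, and with the coverage floor the correlation was 0.122. The pairing difference was 0.348 at W = 1 and 0.648 at W = 6. Trans-homolog over cis pairs were 9.78% at separations of at least 20 kb.

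Shared cis boundaries numbered 3 with a window of 40 bins, 13 with 10 bins, 4 at a prominence of 0.5 and 3 with the coverage floor. Trans-homolog boundaries numbered 3 at a prominence of 0.5 and 11 with a window of 5 bins. Called long-range bins numbered 0 with mapping quality of at least 30, 8 without correction, 5 with the expected value of 4 autosomal arms, 3 with bins of 100 kb and 5 with the coverage floor, against 1. The coverage floor, summed ratios and the ratio to the flanks were chosen after seeing the data. No paired analysis was possible because there is 1 group.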

Other observations

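With the coverage floor, an alternative chosen after seeing the data, 5 long-range bins of 50 kb had at least 2-fold cis contacts with the locus on both homologs. Those starting at 2650001, 2750001 and 2800001 lie in the Antennapedia complex window. They held 22, 7 and 7 maternal and 13, 7 and 5 paternal pairs, the last at the cutoff of 5. Their trans-homolog values were 1.78, 2.84 and 0.651, from 9, 7 and 2 pairs. As stated above, few cis pairs with that window were of high mapping quality. The bins starting at 17250001 and 17450001 lie beyond the Abd-B side, with 25 and 11 maternal and 23 and 11 paternal pairs.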
